A study of Mus musculus with 18 samples.

Results

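The 39 genes described here are nuclear genes for subunits of respiratory complexes II, III and IV and of ATP synthase (complex V), together with the cytochrome c gene Cycs. The set is a list of symbols whose rule holds no threshold on measured values, and each symbol was matched to its Ensembl ID in gene-level tables of 55471 IDs. Complex II had 4 of the genes, complex III 9, complex IV 10 and complex V 15. All 39 passed the filter on low counts, out of 13680 genes that did.

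Messenger RNA was profiled in mouse MII oocytes, the fertilisable eggs that wait at the second meiotic metaphase. One group of 3 libraries was labelled Isca2 -/- (KO) and the other group of 3 libraries was labelled wild type (WT). The series' design text describes matings of Isca2+/- parents and hormone priming for embryos, and the library protocol given for the oocytes is one for blastocysts, built on full-length amplification of messenger RNA. Strain, age, the allele's make-up, the number of oocytes per library and whether replicates came from separate animals were not given in the labels, so the p-values measure the spread between these libraries, which may be technical. Sperm small RNA and blastocyst methylation samples of the same series were not used here.

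The respiratory chain passes electrons from the dehydrogenases through ubiquinone, complex III, cytochrome c and complex IV to oxygen, and ATP synthase uses the proton gradient that results. Complex II, succinate dehydrogenase, is made of nuclear gene products alone, whereas complexes III, IV and V also hold subunits encoded in mitochondrial DNA. ISCA2 helps to build iron-sulfur clusters in mitochondria, and among the 39 subunits iron-sulfur clusters sit in SDHB and in the Rieske protein UQCRFS1. Oocytes rely on mitochondrial oxidation for ATP, and their mitochondria and stored transcripts pass to the embryo.

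The libraries held between 17792157 and 30240350 expected counts. Isca2 itself had 53, 56 and 120 counts in the libraries labelled KO, against 14, 11 and 152 in WT (log2 fold change 0.59, SE 0.89, adjusted p = 0.907 in edgeR's quasi-likelihood test). The targeted transcript was therefore not lower in the libraries labelled KO, and its log2 fold change was 2.48 (SE 0.55, adjusted p = 0.0969) once WT replicate 3 was left out. Whether a deleted part of the gene would be seen in these gene-level counts was not tested, and KO below always means the library labelled so. The markers of the labelled cell type were present, with summed levels of 11010 to 11562 CPM in KO and 10396 to 14185 CPM in WT over 10 oocyte genes (CPM are counts brought to a common library total with TMM factors). Of these 10, 7 had a negative log2 fold change (median -0.46), and 6 did without WT replicate 3 (median -0.12). At an unadjusted p under 0.05 (edgeR), 0 were higher and 3 lower in the 6 libraries, against 2.89% and 3.3% of all genes. Without WT replicate 3, 1 was higher and 3 were lower, against 7.68% and 3.89% of all genes.

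WT replicate 3 stood apart from the other libraries. Its log2 CPM correlated with theirs at 0.881 to 0.903 over 13680 genes, while all other pairs reached 0.93 to 0.96. The 10 macrophage markers summed to 5.93 to 10.3 CPM in KO and to 9.90, 8.41 and 2127 CPM in WT replicates 1, 2 and 3, all 10 were highest in WT replicate 3, and C1qa and C1qc were at 0 in every other library. Markers of the granulosa and cumulus cells around the oocyte summed to 69.3, 95.4 and 151 CPM in KO and 72.8, 66.1 and 92.3 CPM in WT. Of the 12 markers 8 were tested, and 6 of them had a positive log2 fold change (median 2.49). In edgeR, 3 were higher at an unadjusted p under 0.05, beside 2.89% of all genes. Inhbb alone was called higher in edgeR without WT replicate 3, beside 0.574% of all genes. Every KO library was above WT for 3 of the markers, beside 6.48% of all genes. Cyp19a1 gave 52.0 to 60.3 CPM in KO and 51.2 to 64.7 CPM in WT, Inhbb had 2.15, 4.87 and 13.0 CPM in KO and at most 0.044 CPM in WT, and the defining marker Foxl2 was at 0 in KO replicate 1 and in all WT libraries. The part of other cells' RNA in the results below was not tested, and in bulk libraries fewer cells of a type cannot be told apart from less RNA per cell. The main results and most members are therefore given with and without WT replicate 3.

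None of the 39 subunit genes differed between KO and WT at an adjusted p under 0.05 in the 6 libraries (edgeR; of all 13680 genes, 0 were higher and 2 lower, 0.0146%). Their adjusted p ran from 0.606 to 0.996. At an unadjusted p under 0.05, 1 subunit gene, Atp5g3, was higher and 0 were lower, against 2.89% of all genes higher and 3.3% lower. DESeq2 also called Atp5g3, and it called 0.603% of its 13425 genes higher and 0.149% lower (0.752% in all). The log2 fold change was negative for 27 members and positive for 12, with a median of -0.19 and a range of -1.40 to 1.16, while the median over all tested genes was -0.04 and 45.4% of them were positive. The lean to negative values turned with the test, since limma-voom gave the members a median of 0.03 in the same 6 libraries.

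For most members the KO libraries lay inside the WT range. This was so of all 3 KO libraries for 29 of the 39 genes, so that the WT libraries enclosed them. For 26 genes WT replicate 2 was below and WT replicate 3 above every KO library. The share of all genes with either order was not counted, so these counts do not set the members apart from other genes. Relative to the mean of WT replicates 1 and 2, WT replicate 3 was more than 2-fold higher for 23 members, with a median ratio of 2.27, whereas 21.2% of all genes were more than 2-fold higher there and the median ratio was 1.03. WT replicate 2 was below WT replicate 1 for 29 members, with a median ratio of 0.704, against 50.9% of all genes and 0.987. This pattern was not particular to the members, since the 36 nuclear subunit genes of complex I shared it. WT replicate 3 was more than 2-fold higher for 19 of those 36, with a median ratio of 2.10. WT replicate 2 was below WT replicate 1 for 31 of them, with a median ratio of 0.644.

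**Figure D1:**
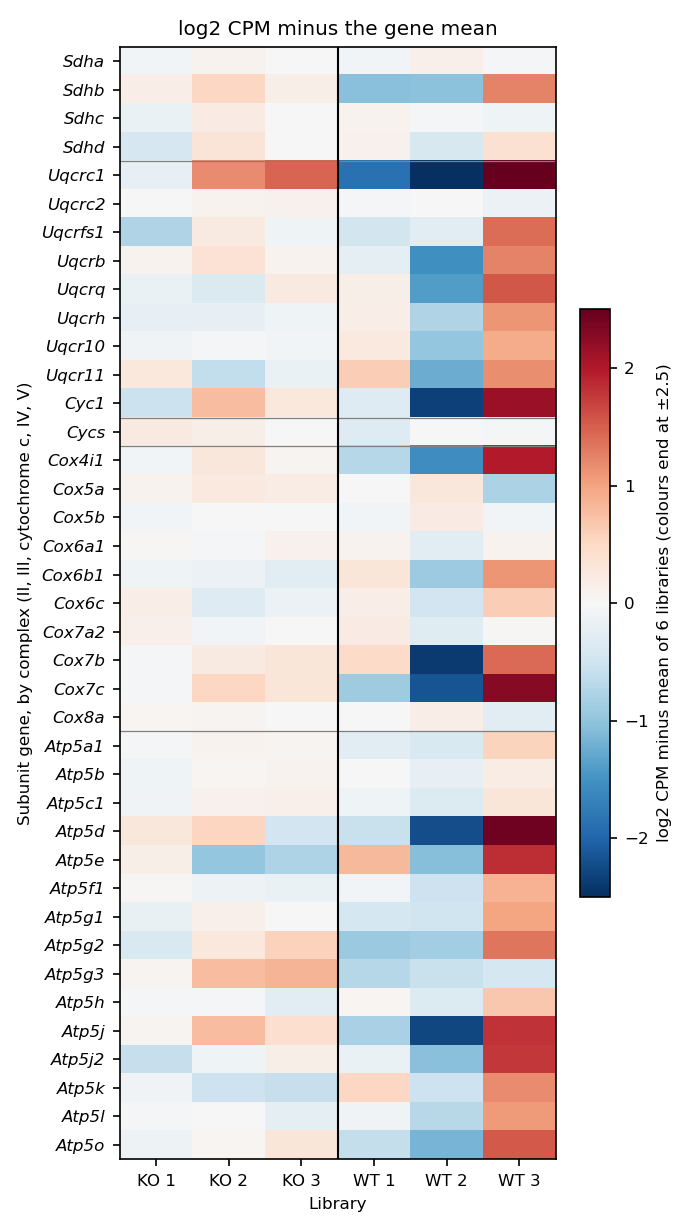
Deviation of each subunit gene's log2 CPM from its mean over the 6 libraries, with KO libraries on the left and WT on the right; red is above and blue below the gene's mean. The WT replicate 3 column is red and the WT replicate 2 column blue for most genes, and the KO columns are paler; rows such as Sdha and Uqcrc2 are near white throughout.

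Leaving out WT replicate 3 turned the balance of signs. The log2 fold change was then positive for 32 members and negative for 7, with a median of 0.22 against 0.01 over all 14122 genes tested, of which 51.5% were positive, and 22 members changed sign between the fits. One member, Uqcrc1, was called higher and 0 were called lower in edgeR, beside 0.574% of all genes higher and 0.0779% lower (0.651% in all). At an unadjusted p under 0.05, 12 members were higher and 0 lower in edgeR, against 7.68% and 3.89% of all genes. DESeq2 called 7 members higher in the same 5 libraries (Sdhb, Uqcrc1, Cox4i1, Cox7c, Atp5g3, Atp5j and Atp5o), with 3.02% of all genes higher and 0.538% lower (3.55% in all). The count in limma-voom was 0 members, and that test called 0.0354% of all genes higher and 0.0425% lower. Only 2 WT libraries remain in these fits, and they also differ in the members, as given above.

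**Figure D2:**
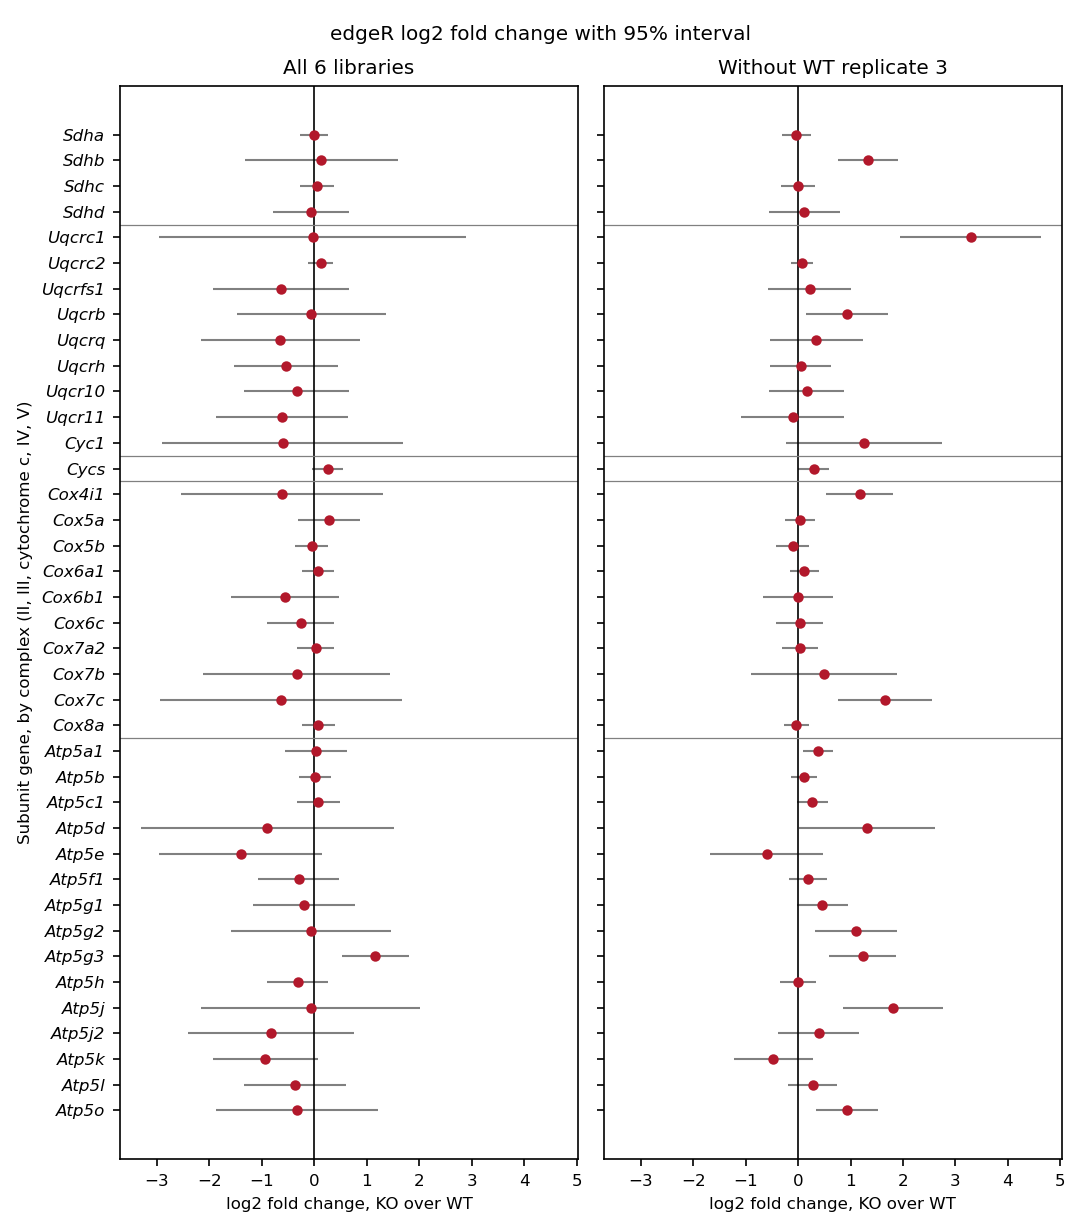
log2 fold change of each subunit gene, KO over WT, from edgeR with all 6 libraries (left) and without WT replicate 3 (right); points are estimates and lines 95% intervals. On the left 38 of the 39 intervals hold 0, and Atp5g3 is the exception; on the right 27 hold 0.

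The deposited TPM (transcript levels scaled to gene length and library) ordered the members over a wide range of levels. Averaged over the 6 libraries, the lowest was Cyc1, the cytochrome c1 subunit of complex III, at 5.35 TPM, and the highest was Cox6a1, a small subunit of complex IV, at 874 TPM, with a median of 75.0 TPM over the 39 genes. Core subunits of one complex could be far apart. Uqcrc2 averaged 356 TPM and its partner in the core of complex III, Uqcrc1, 8.21 TPM. In ATP synthase the catalytic beta subunit gene Atp5b averaged 373 TPM, against 43.3 TPM for the alpha subunit gene Atp5a1.

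Members with higher levels tended to vary less between libraries, with exceptions. The ratio of the highest to the lowest library in CPM was under 1.5 for 9 members, whose median level was 356 TPM, and over 5 for 13 members, whose median level was 52.6 TPM. Across the 39 members, mean CPM and this ratio had a Spearman rho of -0.76, given as a description since all points share the 6 libraries and low counts scatter more. Sdha, at 48.5 TPM, had the smallest ratio (1.15), and Uqcr11, at 413 TPM, had 5.27. The median ratio over members was 3.41. Among the 33 members with a mean of at least 10 CPM, 10 had a ratio below 1.55, the median over all tested genes of such a mean.

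**Figure D3:**
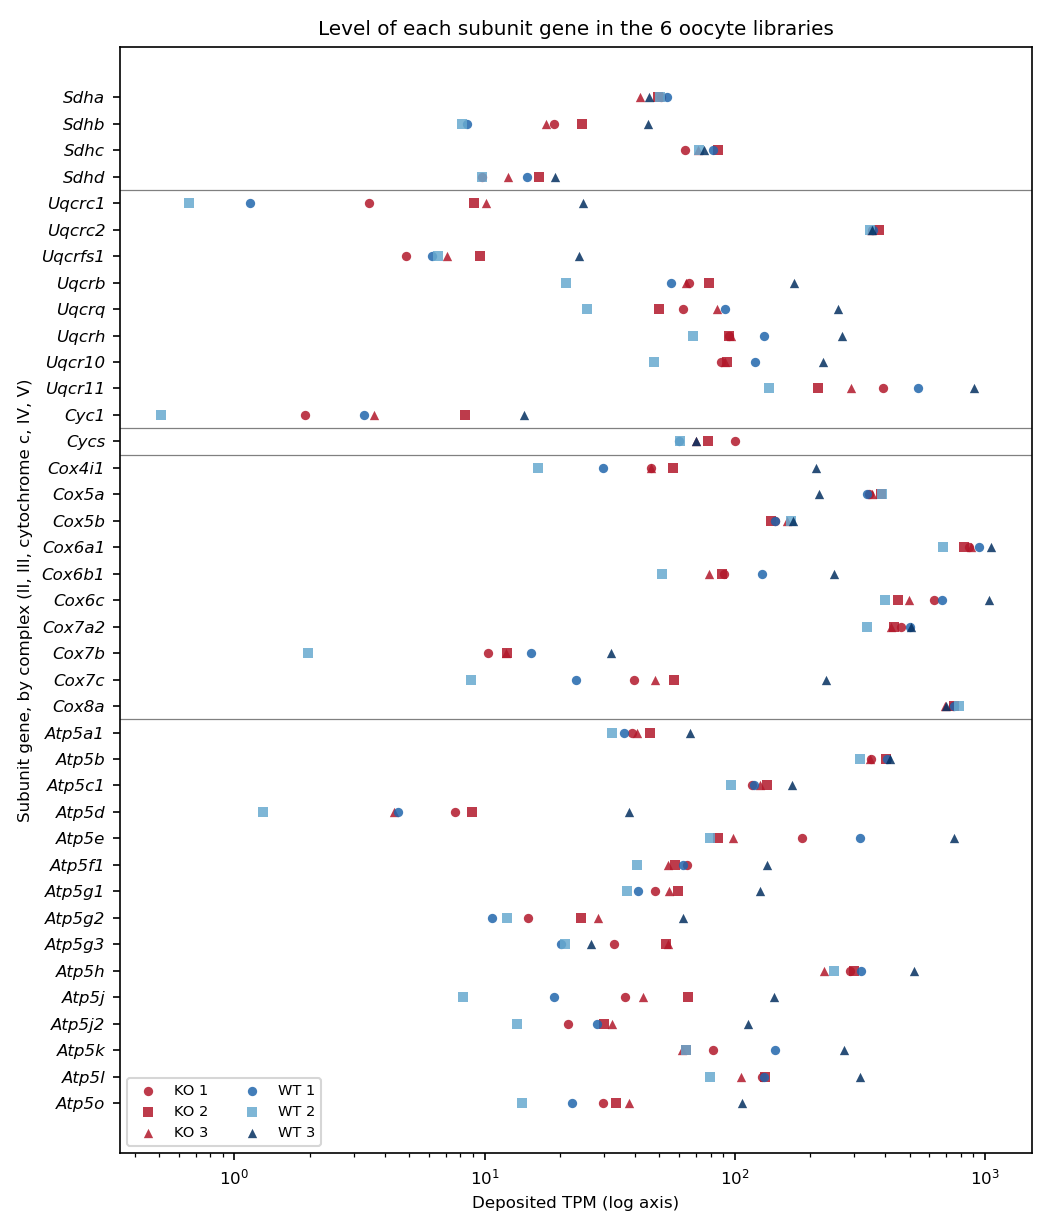
Deposited TPM of each subunit gene in each library on a log axis, with KO libraries in red and WT in blue. Levels run from 0.51 TPM for Cyc1 in WT replicate 2 to 1053 TPM for Cox6a1 in WT replicate 3, and the points of Sdha, Uqcrc2, Cox8a and Atp5b lie close together while those of Uqcrc1, Cyc1 and Atp5d are spread out.

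Complex II oxidises succinate and hands the electrons to ubiquinone. Of its 4 genes 2 had a positive log2 fold change in the 6 libraries and 3 without WT replicate 3, with medians of 0.02 and 0.06. Sdha, the flavoprotein with the active site, had 85.6, 95.1 and 89.5 CPM in KO, against 85.9, 98.1 and 86.6 CPM in WT. Its log2 fold change was 0.00 (SE 0.11, 95% interval -0.27 to 0.27), so that the groups differed by less than the libraries within them. Both membrane anchors had log2 fold changes near 0, Sdhd with a wider error. Sdhc had 57.8, 74.3 and 65.0 CPM in KO and 68.2, 62.6 and 60.1 CPM in WT (0.05, SE 0.14). Sdhd had 7.67, 12.9 and 10.4 CPM in KO and 11.1, 7.83 and 13.5 CPM in WT (-0.07, SE 0.31), and both genes overlapped between the groups.

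Sdhb, the iron-sulfur subunit of complex II on chromosome 4 (140961271 to 140979198, GRCm38.p6), was the least even of the 4. It had 13.5, 17.4 and 13.4 CPM in KO, against 5.83, 5.93 and 28.6 CPM in WT. The KO libraries all lay between WT replicates 1 and 2 below and WT replicate 3 above. In edgeR the log2 fold change was 0.14 with 6 libraries (SE 0.62, adjusted p = 0.979). Leaving out WT replicate 3 gave 1.33 (SE 0.25, adjusted p = 0.0582 in edgeR), and DESeq2 called it there with an adjusted p of 0.000421. The edgeR fit did not.

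Complex III moves electrons from ubiquinol to cytochrome c. Of its 9 genes, 1 had a positive log2 fold change in the 6 libraries, with a median of -0.54, and 8 did without WT replicate 3, with a median of 0.22. WT replicate 3 was a median of 3.42 times the mean of WT replicates 1 and 2 over these genes, the highest such ratio of the 4 complexes. The core subunit gene Uqcrc2 departed from the rest. It had 464, 491 and 497 CPM in KO, against 451, 467 and 418 CPM in WT (log2 fold change 0.12, SE 0.10, 95% interval -0.12 to 0.36).

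Uqcrc1 encodes the other core subunit and lies on chromosome 9 (108936648 to 108949641, GRCm38.p6). The 100 bases before its annotated start are shown because it was the member called higher in edgeR without WT replicate 3. They come from the RefSeq promoter table of GRCm38.p6 on the plus strand, and lie at chr9:108936548-108936647.
Uqcrc1: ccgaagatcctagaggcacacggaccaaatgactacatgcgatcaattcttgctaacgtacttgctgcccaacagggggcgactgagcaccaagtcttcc
Nothing is in capitals because none of the 4 motifs searched was found in this stretch.

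Uqcrc1 had 88, 181 and 346 counts in KO, against 28, 11 and 721 counts in WT. On the CPM scale these were 3.86, 10.1 and 12.2 in KO and 1.23, 0.535 and 24.9 in WT. The highest and the lowest library were both WT, and the ratio of 46.5 between them was the widest of the 39 members. In edgeR the log2 fold change was -0.03 with 6 libraries (SE 1.25, adjusted p = 0.996). The fit without WT replicate 3 gave 3.29 (SE 0.60, 95% interval 1.95 to 4.64, adjusted p = 0.0496), a fitted 9.79-fold difference. The means were 8.73 ± 4.34 CPM in KO (SD, n = 3) and 0.881 ± 0.489 CPM in WT replicates 1 and 2 (SD, n = 2). DESeq2 gave an adjusted p of 2.84e-06 and limma-voom 0.324 in those 5 libraries. The call thus depended on 1 library and on the test.

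The Rieske iron-sulfur protein gene Uqcrfs1, on chromosome 13 (30540312 to 30545316, GRCm38.p6), was low throughout. It had 4.29, 8.51 and 6.77 CPM in KO, against 5.26, 5.93 and 19.1 CPM in WT, and the groups overlapped with and without WT replicate 3. Its log2 fold change was -0.63 (SE 0.55) with 6 libraries and 0.22 (SE 0.35) without WT replicate 3. The 2 iron-sulfur subunit genes of the set were therefore not called in edgeR in either fit. Cyc1 had 1.84, 4.59 and 3.24 CPM in KO and 2.15, 0.535 and 12.0 CPM in WT (-0.61, SE 0.98). Its sign also turned, with 1.25 (SE 0.66) once WT replicate 3 was left out.

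The small accessory subunits of complex III had the WT replicates 2 and 3 at their ends. Uqcrb, which lies near a ubiquinone site, had 15.4, 18.4 and 15.3 CPM in KO, against 12.2, 5.01 and 33.9 CPM in WT. Its log2 fold change was -0.06 (SE 0.60), and 0.93 without WT replicate 3 (SE 0.35, adjusted p = 0.331, edgeR). Uqcrh, the hinge protein gene, had 21.6, 21.8 and 23.3 CPM in KO and 28.1, 14.8 and 54.3 CPM in WT (-0.54, SE 0.42, and 0.05, SE 0.26, without WT replicate 3). The KO libraries agreed closely for both genes and the WT libraries did not. Uqcr11, at 413 TPM the most abundant transcript of complex III, had 64.6, 35.2 and 48.4 CPM in KO and 83.3, 22.9 and 121 CPM in WT (-0.61, SE 0.54, and -0.11, SE 0.44, without WT replicate 3). Uqcrq and Uqcr10 also had WT replicate 2 lowest and WT replicate 3 highest. Their log2 fold changes were -0.65 (SE 0.64) and -0.34 (SE 0.43). Those of both genes were positive without WT replicate 3, at 0.35 (SE 0.40) and 0.16 (SE 0.32). The Uqcrq gene overlaps the oocyte gene Gdf9 in the annotation, and no source used here gives the strand setting. Uqcrq counts were whole numbers in every library, so no division of its reads with another gene was seen. Whether reads were given to the wrong gene of the pair was not tested.

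Cycs, the mobile electron carrier between complexes III and IV, lies on chromosome 6 (50562563 to 50566569, GRCm38.p6). It had 169, 158 and 145 CPM in KO, against 115, 142 and 140 CPM in WT, so that every KO library was above every WT library. The means were 158 ± 11.8 CPM in KO and 132 ± 15.4 CPM in WT (SD, n = 3 each). edgeR gave a log2 fold change of 0.25 (SE 0.13, adjusted p = 0.767) with 6 libraries and of 0.30 (SE 0.13, adjusted p = 0.423) with WT replicate 3 left out. Cycs and Atp5g3 were the 2 members without overlap on the higher side, and 0 members had all KO libraries below WT, beside 6.48% and 5.96% of all genes. Cycs counts were not whole numbers in any library, which means that reads were shared with other genes in the counting. Without WT replicate 3 there were 14 members with KO above WT and 0 below, beside 15.4% and 13.1% of all genes.

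Complex IV, cytochrome c oxidase, reduces oxygen, and its nuclear subunits surround a catalytic core made in the mitochondrion. Of the 10 genes 4 had a positive log2 fold change in the 6 libraries and 7 without WT replicate 3, with medians of -0.16 and 0.04. The abundant subunits were close to level. Cox6a1 had 226, 215 and 238 CPM in KO, against 234, 182 and 233 CPM in WT (0.07, SE 0.13). Cox8a had 183, 184 and 175 CPM in KO and 174, 196 and 145 CPM in WT (0.07, SE 0.13). Both ranges overlapped. Cox5a, like Cox8a and Uqcrc2, was lowest in WT replicate 3, with 111, 123 and 119 CPM in KO and 103, 127 and 60.2 CPM in WT (0.28, SE 0.25). Without that library its log2 fold change was 0.03 (SE 0.13).

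Cox4i1 and Cox7c were the complex IV genes that moved most with WT replicate 3. Cox4i1, the largest nuclear subunit, had 17.6, 22.4 and 19.4 CPM in KO, against 11.3, 6.27 and 73.3 CPM in WT. Its log2 fold change was -0.61 (SE 0.82) with 6 libraries and 1.17 without WT replicate 3 (SE 0.28, adjusted p = 0.119, edgeR; 0.00514, DESeq2). The small subunit gene Cox7c had 9.29, 13.6 and 11.7 CPM in KO, against 5.17, 2.14 and 46.2 CPM in WT. It had -0.63 (SE 0.98) and, without WT replicate 3, 1.65 (SE 0.40, adjusted p = 0.119, edgeR; 0.0037, DESeq2). In both genes the KO libraries sat between the WT libraries, and in edgeR and DESeq2 the sign turned when WT replicate 3 was left out. The sign also depended on the test. With all 6 libraries limma-voom gave positive values, 0.03 for Cox4i1 and 0.29 for Cox7c.

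Cox6b1 has a counterpart known from testis, Cox6b2, which was the higher of the pair in these oocytes. Cox6b2 had 745, 732 and 649 TPM in KO, against 685, 687 and 549 TPM in WT. Cox6b1 had 90.2, 89.0 and 78.6 TPM in KO and 129, 51.4 and 249 TPM in WT. The ratio of Cox6b2 to Cox6b1 was 8.26, 8.22 and 8.25 in KO and 5.32, 13.4 and 2.20 in WT. The KO ratios were nearly equal and lay inside the WT range. Neither gene was called, with log2 fold changes of 0.25 (SE 0.17) for Cox6b2 and -0.56 (SE 0.44) for Cox6b1. Without WT replicate 3 these were 0.09 (SE 0.11) and 0.00 (SE 0.30). Of the other alternative isoforms, Cox4i2 stayed at 1.25 to 1.75 TPM in KO and 1.36 to 8.26 TPM in WT, and Cox7b2 and Cox8b had 0 TPM in all 6 libraries.

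Complex V makes ATP in a catalytic head turned by a ring of c subunits. Of its 15 genes 4 had a positive log2 fold change in the 6 libraries, with a median of -0.30, and 13 did without WT replicate 3, with a median of 0.38. WT replicate 3 was a median of 2.70 times the mean of the other WT libraries. The catalytic beta subunit gene Atp5b had 305, 338 and 350 CPM in KO, against 327, 283 and 373 CPM in WT (0.01, SE 0.13). Atp5a1 and Atp5c1, for the alpha and gamma subunits, had 0.02 (SE 0.25) and 0.08 (SE 0.18), and 0.38 (SE 0.13) and 0.27 (SE 0.13) without WT replicate 3. The head's smallest subunits were less even. Atp5d had -0.90 (SE 1.03) with 6 libraries and the opposite sign, 1.32 (SE 0.58), without WT replicate 3. Atp5e had -1.40 (SE 0.66), the lowest value of the 39 genes in the 6 libraries, and -0.60 (SE 0.48) without WT replicate 3, with 27.3, 12.5 and 14.5 CPM in KO and 43.0, 11.9 and 88.8 CPM in WT.

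Among the stalk and membrane subunits, Atp5h had 71.2, 71.8 and 60.6 CPM in KO, against 76.6, 58.8 and 119 CPM in WT (-0.32, SE 0.25, and 0.00, SE 0.15, without WT replicate 3). Atp5k had 9.90, 7.33 and 7.02 CPM in KO and 15.0, 7.34 and 23.9 CPM in WT (-0.93, SE 0.43, adjusted p = 0.766, edgeR, and -0.47, SE 0.34, without WT replicate 3). It had the second smallest unadjusted p of complex V, and WT replicate 2 was the only WT library within the KO range. Atp5j, a subunit of the peripheral stalk, had 11.1, 18.0 and 14.1 CPM in KO and 6.002, 2.188 and 37.04 CPM in WT. Its log2 fold change was -0.07 (SE 0.89), and 1.81 without WT replicate 3 (SE 0.42, adjusted p = 0.112, edgeR; 0.00107, DESeq2). Atp5o, the stalk subunit that confers oligomycin sensitivity, had -0.33 (SE 0.66) and, without WT replicate 3, 0.94 (SE 0.26, adjusted p = 0.174, edgeR; 0.0400, DESeq2). Gabpa overlaps Atp5j in the annotation. The counts of Atp5j were whole numbers in every library, so no division of its reads with another gene was seen. Whether reads were given to the wrong gene of this pair was not tested.

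The c subunit of the ring is encoded by 3 genes whose mature proteins are the same and whose import sequences differ, Atp5g1, Atp5g2 and Atp5g3. They lie on chromosome 11 (96072793 to 96075694), chromosome 15 (102662868 to 102671047) and chromosome 2 (73908447 to 73912464) of GRCm38.p6. Stretches before the RefSeq starts of Atp5g2 and Atp5g3 are shown, both on the minus strand, because these genes differed in the libraries in unlike ways and each stretch holds a motif of a factor known for respiratory genes. The Atp5g2 stretch lies at chr15:102671048-102671147, with an NRF1 motif (GCGCA, any base, GCGC) in capitals. The Atp5g3 stretch lies at chr2:73911359-73911388, within the annotated span of the gene and 62 to 33 bases before the listed start, with an estrogen-related receptor motif (TCAAGGTCA, here on the other strand) in capitals.
Atp5g2: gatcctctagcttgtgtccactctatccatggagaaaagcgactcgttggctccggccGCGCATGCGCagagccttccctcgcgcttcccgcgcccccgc
Atp5g3: tgttacaaagTGACCTTGAgcgtcttcccc
A match is only a run of letters, and whether a factor binds there was not measured. Any link of a motif to the levels below was not tested. Atp5g1 was not among the members found with any of the 4 motifs, and whether it had a window is not given here.

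Atp5g3 was the member with the smallest p in the 6 libraries. It had 12.4, 20.2 and 21.5 CPM in KO, against 7.27, 8.07 and 8.80 CPM in WT, so that every KO library was above every WT library, WT replicate 3 included. The means were 18.0 ± 4.91 CPM in KO and 8.05 ± 0.762 CPM in WT (SD, n = 3 each), a 2.24-fold difference. The log2 fold change was 1.16 (SE 0.27, 95% interval 0.52 to 1.80), with an unadjusted p of 0.00341 and an adjusted p of 0.606 in edgeR, and DESeq2 gave an adjusted p of 0.0237. Leaving out WT replicate 3 gave 1.23 (SE 0.28), with an adjusted p of 0.108 in edgeR and 0.00402 in DESeq2. The direction held in both fits, and the call was made by DESeq2 alone. Granulosa markers had their highest sums in KO replicates 3 and 2, where Atp5g3 was also highest. In KO replicate 1 they summed to 69.3 CPM, below WT replicates 1 and 3 (72.8 and 92.3 CPM). Atp5g3 had 12.4 CPM in KO replicate 1 and 7.27 and 8.80 CPM in those WT libraries. Of the single markers given above, Inhbb was higher in KO replicate 1 than in any WT library, and Cyp19a1 overlapped between the groups. The part of granulosa cells in the difference between KO and WT was not tested.

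The other c subunit genes followed WT replicate 3. Atp5g1 had 14.2, 17.7 and 16.3 CPM in KO, against 11.9, 11.4 and 31.8 CPM in WT (-0.19, SE 0.42, and 0.46, SE 0.22, without WT replicate 3). Atp5g2 had 5.78, 9.07 and 11.2 CPM in KO and 3.94, 4.13 and 19.2 CPM in WT (-0.07, SE 0.65, and 1.11, SE 0.35). Both lay above WT replicates 1 and 2 and below WT replicate 3 in every KO library. Summed over the 3 genes, the c subunit had 32.3, 47.0 and 49.0 CPM in KO and 23.1, 23.6 and 59.8 CPM in WT. Atp5g3 made up 34.3%, 38.9% and 39.4% of the summed TPM in KO, against 28.2%, 29.8% and 12.5% in WT. The share of Atp5g3 was thus higher in every KO library than in any WT library, and no test was run on it. Counts of Atp5g1 and Atp5g2 were not whole in 3 and 5 libraries, so reads were shared with similar sequences, whereas those of Atp5g3 were whole in all 6.

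**Figure D4:**
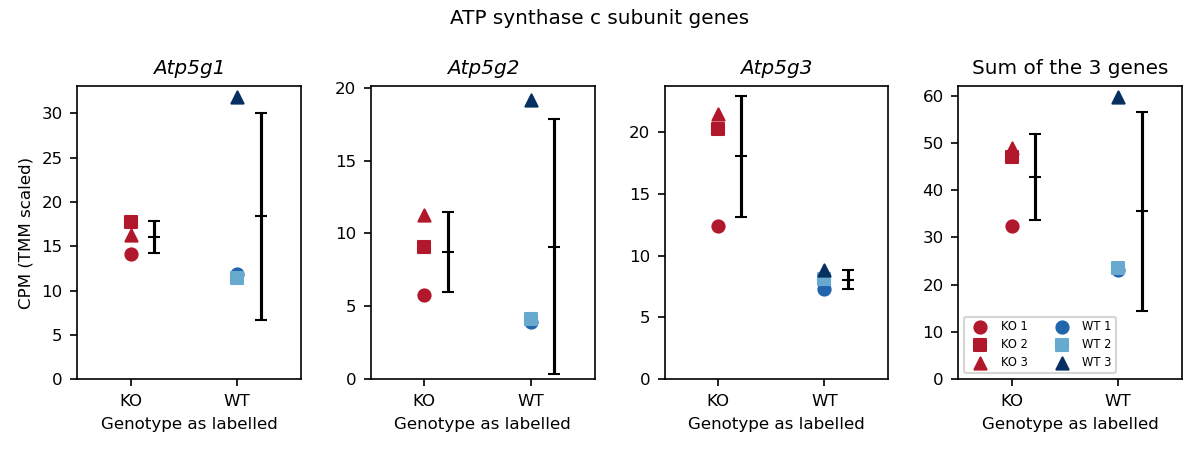
CPM of the 3 c subunit genes and of their sum in each library, KO left and WT right; bars show the mean and SD of 3 libraries. Atp5g3 is higher in all KO libraries (12.4 to 21.5 CPM) than in WT (7.27 to 8.80 CPM), while in the other panels WT replicate 3 is the highest point.

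Summed over each complex in TPM, WT replicate 2 was lowest and WT replicate 3 highest, while the order of the other libraries differed. Complex II summed to 142.6, 176.1 and 143.4 TPM in KO and 158.5, 140.0 and 184.9 TPM in WT. Complex III had 1067, 935 and 1001 TPM in KO, against 1310, 654 and 2243 TPM in WT. Complex IV had 3369, 3199 and 3189 TPM in KO, against 3556, 2837 and 4410 TPM in WT. In each of these complexes the KO sums lay between WT replicate 2, the lowest, and WT replicate 3, the highest, though for complex II this did not hold in CPM, where KO replicate 1 was lowest at 164.6 and KO replicate 2 highest at 199.7. The same held for complex V, with 1450, 1497 and 1314 TPM in KO and 1680, 1067 and 3266 TPM in WT.

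Mitochondrial transcripts for complexes III, IV and V ran the other way in WT replicate 3. The 6 genes mt-Cytb, mt-Co1, mt-Co2, mt-Co3, mt-Atp6 and mt-Atp8 summed to 46921, 54704 and 56215 TPM in KO, against 43040, 51511 and 34366 TPM in WT. Divided by the summed TPM of the nuclear subunits of the same complexes, this gave 7.97, 9.72 and 10.2 in KO and 6.58, 11.3 and 3.46 in WT. The KO ratios again lay inside the WT range. All 6 genes had a positive log2 fold change, with a median of 0.42, and 0 were called in edgeR while 3 had an unadjusted p under 0.05 (2.89% of all genes were higher at that level). Without WT replicate 3 the median was 0.25. The cytochrome c oxidase gene mt-Co3 had 704, 974 and 835 CPM in KO, against 580, 549 and 538 CPM in WT (0.59, SE 0.14, adjusted p = 0.612, edgeR). DESeq2 called it with an adjusted p of 0.0168 in the 6 libraries and 0.00198 without WT replicate 3, where edgeR gave 0.57 (SE 0.13). It shared with mt-Co1 and mt-Co2 that every KO library was above every WT library, as was so of 6.48% of all genes.

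**Figure D5:**
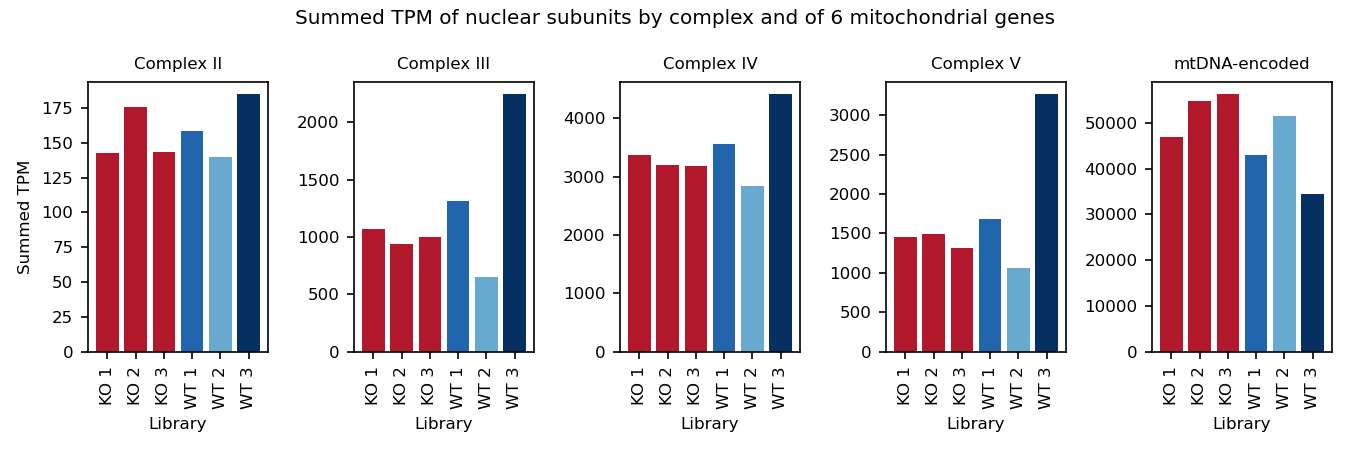
Summed deposited TPM of the nuclear subunits of complexes II, III, IV and V and of 6 genes of mitochondrial DNA in each library, KO left and WT right, each panel with its own axis from 0. WT replicate 3 has the tallest bar in the 4 nuclear panels and the shortest, at 34366 TPM, in the mitochondrial panel.

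Factors that assemble these complexes were not called either, with 0 calls in edgeR in the 6 libraries among 4 tested factors of complex II, 6 of complex III, 20 of complex IV and 5 of complex V. In the assembly of complex II, Sdhaf1 had 0.23 (SE 0.39) and Sdhaf3 -0.14 (SE 0.40). For complex III, Uqcc1 had 16.6, 16.2 and 14.1 CPM in KO, against 19.98, 19.6 and 18.6 CPM in WT (-0.31, SE 0.18), with every KO library below WT. For complex IV, Surf1, whose loss in people causes a deficiency of that complex, had 8.63, 8.06 and 6.52 CPM in KO and 9.59, 9.58 and 11.6 CPM in WT (-0.41, SE 0.25). Tmem70, which serves ATP synthase, had 52.8, 46.4 and 43.1 CPM in KO and 58.4, 55.2 and 73.7 CPM in WT (-0.40, SE 0.16, adjusted p = 0.766, edgeR). These 3 factors were lower in each KO library than in any WT library, as 5.96% of all genes were, and the differences did not pass the adjustment. Without WT replicate 3 their log2 fold changes were -0.34 (SE 0.19) for Uqcc1, -0.31 (SE 0.26) for Surf1 and -0.26 (SE 0.14) for Tmem70. The others with the smallest p of their lists in the 6 libraries were Lyrm7 (1.01, SE 0.65), Cox20 (1.27, SE 0.87) and Atpaf2 (0.30, SE 0.24). Without WT replicate 3 the factors of complexes II, III, IV and V had median log2 fold changes of 0.15, 0.97, 0.36 and 0.19. There 0, 1, 2 and 1 of them were higher at an unadjusted p under 0.05 (edgeR), beside 7.68% of all genes. In each list 0 were lower at that level, beside 3.89% of all genes. Atpif1, an inhibitor of ATP synthase named after its values were seen, had 1.38 without WT replicate 3 (SE 0.34, adjusted p = 0.124, edgeR; 0.00549, DESeq2).

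The 36 nuclear subunit genes of complex I, which feeds the chain from NADH, had a median log2 fold change of -0.04 in the 6 libraries, with 17 positive and 0 called in edgeR. Without WT replicate 3 the median was 0.33, with 26 positive, beside 0.22 and 32 of 39 for complexes II to V. In that fit edgeR called 1 complex I gene, Ndufa9 (1.93, SE 0.35, adjusted p = 0.0482), and DESeq2 called 4, beside 0.574% and 3.02% of all genes called higher. Ndufs4 and Ndufs8 had the smallest p of complex I in the 6 libraries, with 0.46 (SE 0.17) and 1.06 (SE 0.45). The difference between complex I and the other complexes was not tested.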

How the data were processed

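Per the file headers, the authors deposited RSEM expected counts, TPM and FPKM per Ensembl gene ID for each MII oocyte library; FPKM was not used. The deposited TPM, scaled by the authors to gene length and library, was used for levels, sums and ratios between genes. Per the submitters' processing notes, Trim Galore 0.4.5, STAR 2.6.1c, RSEM 1.3.1, DESeq2 1.42.1 and mm10/GRCm38 were used; no source used here gives their roles, the annotation or the strand setting. RSEM divides reads that map to several genes: 8 members had a count that was not whole (beyond 0.001) in at least 1 library.

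A symbol was found for 55144 of 55471 IDs. The expected counts deposited by the authors were rounded and tested over all genes with R 4.3.3 and edgeR 4.0.16 (quasi-likelihood test after filterByExpr by group, TMM, genotype alone, Benjamini-Hochberg adjustment, threshold 0.05). The SE is the size of the log2 fold change divided by the root of F. DESeq2 1.42.0, limma 3.58.1 (voom, and log2 of TPM), other scalings and filters, a replicate block and leaving out each library were alternatives. Same-numbered libraries did not deviate together, so they were not treated as pairs.

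The named genes were first those fixed by role. Of each complex, the 2 with the smallest p in either fit and the 2 with the highest TPM were named. Members called or without overlap, and the 2 with the smallest p of each other list apart from the cell type markers, were also named. Of the markers with the smallest p of their lists, Inhbb was given, and Hsd17b1, Kit, Zp2, Il1b and Il1rn were not. The markers Cyp19a1, Foxl2, C1qa and C1qc were named outside this rule. Values of further members (such as Cyc1, Uqcrq, Uqcr10, Atp5a1, Atp5c1, Atp5d, Atp5e and Atp5o) were added after they were seen. Members and lists were chosen with earlier results of these data known. Promoter letters and coordinates came from RefSeq tables of GRCm38.p6, which held a window for 31 of the 39 members; 4 motifs were searched on both strands in 250 bases upstream.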

Additional observations from a re-analysis of the deposited data

How the results depend on the processing

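Calls over all genes changed with the test and with WT replicate 3. DESeq2 called 81 genes higher and 20 lower in the 6 libraries, 1 of them a member, against 0 and 2 in edgeR. Limma on log2 TPM called 2 higher and 4 lower with a pseudocount of 1, and 1 and 4 with 0.1. Without WT replicate 3, DESeq2 called 426 and 76 with 7 members, limma-voom 5 and 6 with 0 members, and RLE factors in edgeR 81 and 11 with 1 member. Leaving out 1 library at a time gave 0 to 81 genes higher, 1 to 11 lower and 0 to 1 members higher; the members' median log2 fold change ran from -0.52 to 0.22, and only leaving out WT replicate 3 made it positive among these. It was 0.03 with limma-voom and -0.04 with log2 TPM in the 6 libraries. For Uqcrc1 the same range was -0.57 to 3.29, where it had -0.03 with 6 libraries. It had 3.30 in DESeq2 (adjusted p = 2.84e-06) and 3.29 with RLE factors in edgeR (adjusted p = 0.0489) without WT replicate 3. DESeq2 without that library also turned the sign of Cox4i1 (1.17), Cox7c (1.66), Atp5j (1.81) and Atp5o (0.94). The replicate numbers share no stated source, and same-numbered libraries correlated at 0.06, -0.11 and 0.01 in their deviations. With the replicate block, 0 genes were higher, 2 lower and 0 members called, with a median of 0.04 over members and a smallest member adjusted p of 0.941. The sign of the log2 fold change differed from the 6-library edgeR fit for 15 and 16 members with log2 TPM, 9 with limma-voom and 22 without WT replicate 3. The reason for these shifts was not tested. Low counts limit the rarer members: Uqcrc1 had 11 counts in WT replicate 2.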

Other observations

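Motifs known from respiratory genes were counted in the 250 bases before the RefSeq start of 31 members and of 27025 genes, on both strands, as a description. The 27025 genes were all those with a window and were not limited to genes that passed the filter on low counts. All members did pass it, so the shares below come from unlike sets. The NRF1 motif (GCGCA, any base, GCGC) stood before 7 of the 31 members (22.6%), among them Sdha, Sdhd, Cox6a1 and Atp5g2, and before 4.23% of all genes. The ETS motif CCGGAAG stood before 9 members (29.0%), among them Cox6b1, Uqcrh, Uqcr11 and Atp5j, against 7.83% of all genes. The YY1 motif AAGATGGC was found for 1 member, Atp5j (3.23%, against 1.83%), and the estrogen-related receptor motif TCAAGGTCA for 1, Atp5g3 (3.23%, against 0.422%). Sdhd, Cox6a1 and Atp5h held both the NRF1 and the ETS motif.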
